A study of Mus musculus with 116 samples.

Results

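A set of 8 long noncoding RNAs known as nuclear transcripts was described across all libraries of 2 mouse cell lines. They are Malat1, Neat1, Airn, Kcnq1ot1, Snhg14, Pvt1, Tug1 and Firre. They were chosen by name, from a list drawn up with earlier results on these libraries known, and make up 8 of the 40202 gene symbols counted. Of the 8, 7 had a count in at least 1 library, and Kcnq1ot1 had 0 counts in all of them. For comparison, 19416 gene symbols had 0 counts in every library.

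The libraries were made with nanoSPLITS, in which the lysate of very few cells sits in a nanodroplet that is split, so that one portion goes to RNA sequencing and the other to protein measurement. C10 is a mouse line labelled as alveolar type II epithelium and SVEC is a mouse line labelled as endothelium, both grown in standard culture with no treatment. An input series of C10 held 8 libraries of 1 cell, 6 libraries of 3 pooled cells and 6 libraries of 10 pooled cells, and a separate set of single cells had 48 libraries of C10 and 48 of SVEC, 1 cell each. The SMART-Seq v4 Plus kit was used to make full-length cDNA, and the labels name no separate cultures, so spreads and p-values below measure differences between libraries that may be technical. Lineage markers were weak in both lines. In every C10 single cell 6 of 8 alveolar type II markers, the 4 surfactant protein genes and Nkx2-1 and Slc34a2, had 0 counts. In every SVEC single cell 4 of 8 endothelial markers (Kdr, Emcn, Vwf and Tie1) had 0 counts. Of the other endothelial markers, Pecam1 and Tek were in more C10 cells (26.1% each) than SVEC cells (10.4% and 6.25%). Flt1 and Cdh5 had higher means in SVEC (11.4 and 0.0944 CPM) than in C10 (0.592 and 0.00432 CPM). The epithelial marker Cdh1 was in 52.2% of C10 and 2.08% of SVEC cells, at means of only 1.01 and 0.03 CPM. Among the other epithelial markers, Krt18 was in 6.52% and Epcam in 2.17% of C10 cells, and neither was in any SVEC cell. Krt8 had 0 counts in the single cells of both lines. The fibroblast marker Col1a1 was in 100% of C10 and 97.9% of SVEC cells. The other fibroblast markers were in few cells of either line. Col1a2 was in 13.0% of C10 and 20.8% of SVEC cells, and Pdgfra in 19.6% and 20.8%.

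Long noncoding RNAs are transcripts that are not translated, and the ones described here act mainly in or from the nucleus. Malat1 gathers in nuclear speckles, bodies rich in splicing factors, and Neat1 is the scaffold of paraspeckles, bodies that form beside them. Airn, Kcnq1ot1 and Snhg14 belong to imprinted loci, where one parental copy is silent: Airn silences Igf2r and its neighbours, Kcnq1ot1 the domain around Kcnq1 and Cdkn1c, and Snhg14 hosts small nucleolar RNAs and runs antisense to Ube3a. Pvt1 lies beside Myc, Tug1 is a widely expressed transcript with roles in chromatin regulation, and Firre is made from the X chromosome and binds the nuclear matrix protein Hnrnpu.

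Malat1 and Neat1 are neighbouring genes on chromosome 19 of GRCm38, both transcribed from the minus strand (chr19:5795690-5802672 and chr19:5824708-5845478 in GENCODE M21), and their RNAs share an unusual 3′ end. In Malat1 and in the long form of Neat1, the enzyme RNase P is known to cut the transcript so that it has no poly(A) tail, and U-rich stretches fold with an A-rich stretch into a protective triple helix. The stretches of these ends are shown because the kit primes cDNA on runs of A, which most messenger RNAs carry in their tail. They are from the longest annotated transcripts, bases 6606 to 6705 of the 6983 bases of Malat1-201 and bases 20692 to 20771 of the 20771 bases of Neat1-201, with the stretches identical in both in capitals.
Malat1-201: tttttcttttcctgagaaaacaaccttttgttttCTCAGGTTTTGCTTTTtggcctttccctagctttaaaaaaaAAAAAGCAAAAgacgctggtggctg
Neat1-201: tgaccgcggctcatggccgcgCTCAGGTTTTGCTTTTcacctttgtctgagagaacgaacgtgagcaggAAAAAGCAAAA
The first shared stretch is 16 bases long and the second 11 bases. Both occurred in this order, the second wholly within the 80 bases after the first, in transcripts of 2 of 55341 annotated gene symbols. These were Malat1 and Neat1, from which the stretches were taken, so only the absence from other symbols is a result. The longest run of A in Malat1-201 was 12 bases, at positions 6674 to 6685, and the longest in Neat1-201 was 7 bases. Neat1 also has a short form with a poly(A) tail, and the counts, given per gene symbol, do not tell its forms apart. Whether priming inside transcripts set any level reported here was not tested.

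Depth differed between groups and touches every detection value that follows. Libraries of the input series held 430798 to 15385625 gene counts. In the single-cell set 2 C10 libraries had fewer than 1000 gene counts and were left out of all levels, the other 46 had a median of 1881700 gene counts, and the 48 SVEC libraries had a median of 434945. In the input series 1-cell replicate 1 stood apart, with 538 genes detected and 64.6% of its counts on mitochondrial genes. Levels are counts scaled to a library total of 1000000 gene counts (CPM), given as mean ± SD over libraries. Because each single-cell library is 1 cell and no culture is named, each line counts as 1 sample in the single-cell set, and differences between C10 and SVEC and between 1-cell and pooled libraries are described without a test.

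Malat1 was the most abundant of these RNAs in every group, and its mean was higher in SVEC than in C10 single cells. Across the 46 C10 single cells its level ran from 5.81 to 71160 CPM with a median of 677 CPM, and all 46 cells had counts. Across the 48 SVEC single cells it ran from 0 to 74203 CPM with a median of 1944 CPM, and 45 cells had counts. The 2 ranges overlapped almost wholly, but 16 of 48 SVEC cells and 2 of 46 C10 cells exceeded 10000 CPM, so that more than 1 in 100 of all gene counts in those cells came from this single RNA. The 16 SVEC cells include replicates 24 and 48, which had fewer than 100000 gene counts, 1290 and 1338 genes detected and mitochondrial shares of 27.5% and 22.4%, and among cells with at least 100000 gene counts 13 of 42 SVEC and 2 of 45 C10 cells exceeded that level. The mean was 3008 ± 10638 CPM (SD, n = 46 cells) in C10 and 12511 ± 18903 CPM (SD, n = 48 cells) in SVEC, a 4.16-fold higher mean in SVEC (log2 ratio of C10 over SVEC -2.06). C10 single-cell replicate 1 alone held 249422 of the 392459 Malat1 counts of its group, and without the highest cell of each line the means were 1494 and 11199 CPM and the log2 ratio -2.91. The 3 SVEC cells with no Malat1 count, replicates 26, 33 and 35, were not shallow, with 552427, 790581 and 520453 gene counts. In those cells 3 counts would correspond to 5.43, 3.79 and 5.76 CPM.

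In the input series Malat1 counts of the 8 libraries of 1 cell, replicates 1, 2, 5, 6, 9, 10, 13 and 14, were 0, 942, 5592, 3142, 5294, 6836, 4492 and 14137. The 6 libraries of 3 cells, replicates 1, 2, 5, 6, 9 and 10, held 2210, 1844, 7345, 986, 1883 and 2747 counts. The 6 libraries of 10 cells with the same numbers held 4586, 2915, 4146, 22084, 177737 and 1101 counts. The groups overlapped, and 10-cell replicate 9 held 83.6% of all Malat1 counts of its group. Mean levels were 542 ± 573 CPM (SD, n = 8) for 1 cell, 269 ± 195 CPM (SD, n = 6) for 3 cells and 2566 ± 4696 CPM (SD, n = 6) for 10 cells. Without 10-cell replicate 9 the 10-cell mean was 674 ± 850 CPM (SD, n = 5), which is 1.24-fold the 1-cell mean in place of 4.73-fold with it.

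Neat1, the paraspeckle scaffold, was found in fewer cells than Malat1 and at lower levels. It had counts in 23 of 46 C10 cells and 18 of 48 SVEC cells. In C10 it ran from 0 to 552 CPM with a mean of 45.8 ± 99.4 CPM (SD, n = 46), and in SVEC from 0 to 1007 CPM with a mean of 103 ± 208 CPM (SD, n = 48), 2.26-fold higher in SVEC. Where it was counted at all, its median level was 60.9 CPM in C10 and 201 CPM in SVEC. After each cell was thinned to 100000 counts, leaving out 1 C10 and 6 SVEC cells below that depth, Neat1 remained in 19 of 45 C10 cells (42.2%, exact 95% interval 27.7 to 57.8%) and 16 of 42 SVEC cells (38.1%, 23.6 to 54.4%). These intervals cover the sampling of cells within 1 line, and the difference between the lines was not tested.

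The 1-cell libraries, in the replicate order given for Malat1, held 0, 0, 0, 826, 1, 627, 86 and 111 Neat1 counts. The 3-cell libraries held 69, 0, 2290, 131, 1159 and 1960 counts and the 10-cell libraries 691, 262, 1549, 1737, 5663 and 176 counts. The number of libraries with Neat1 was 5 of 8, 5 of 6 and 6 of 6. The mean was 16.5 ± 24.8 CPM (SD, n = 8) for 1 cell, 83.1 ± 89.7 CPM (SD, n = 6) for 3 cells and 132 ± 136 CPM (SD, n = 6) for 10 cells, with overlapping ranges. Neat1 also had its highest 10-cell value in replicate 9, at 383 CPM.

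Airn, the silencer of the Igf2r domain, was at 0 in most single cells and exceeded 100 CPM in 4 C10 and 8 SVEC cells. It had counts in 12 of 46 C10 cells and 15 of 48 SVEC cells. Its mean was 16.0 ± 41.9 CPM (SD, n = 46) in C10, with a highest cell of 161 CPM, and 47.8 ± 97.8 CPM (SD, n = 48) in SVEC, with a highest cell of 451 CPM. The SVEC mean was 2.98-fold higher. In the input series nearly all Airn counts came from 3 libraries. The 1-cell libraries held 0, 923, 0, 0, 3, 0, 0 and 3 counts, the 3-cell libraries 1, 1, 0, 1, 0 and 0 counts, and the 10-cell libraries 0, 93, 1, 1, 305 and 0 counts. Replicate 2 of the 1-cell libraries therefore carried 99.4% of the 1-cell Airn counts and 10-cell replicate 9 carried 76.3% of the 10-cell counts. Of the genes that Airn silences, Igf2r was counted in 19.6% of C10 and 18.8% of SVEC cells, at mean levels of 3.36 and 13.5 CPM. Airn lies across part of Igf2r on the opposite strand with no shared exon bases in GENCODE M21, and the strand setting of the counting is not given in the sources used here, so reads from introns of either gene are uncertain.

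Snhg14, the snoRNA host of the Ube3a locus, was rare everywhere. It had counts in 7 of 46 C10 cells, the highest at 36.2 CPM, and 6 of 48 SVEC cells. SVEC replicate 24, a library of 95959 gene counts, with 1290 genes detected and 27.5% of counts on mitochondrial genes, held 79 Snhg14 counts or 823 CPM, while the next SVEC cell held 59.4 CPM. That cell set the line's mean of 18.8 ± 119 CPM (SD, n = 48) against 3.01 ± 9.10 CPM (SD, n = 46) in C10. Without the highest cell of each line the means were 1.69 CPM in SVEC and 2.27 CPM in C10, and the order turned. The 1-cell libraries held 2 Snhg14 counts in all, the 3-cell libraries 4 and the 10-cell libraries 325, of which 306 were in replicate 10. Snhg14 and Ube3a share 1803 exon bases on opposite strands, so counts of either gene are uncertain.

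Kcnq1ot1, the silencer of the Kcnq1 domain, had 0 counts throughout. With 99332009 gene counts pooled over C10 single cells and 29017802 over SVEC cells, 3 counts would correspond to 0.0302 and 0.103 CPM. These limits hold only if the authors' annotation counted reads of this gene, which the zeros alone cannot show and which was not tested. The exact 95% upper limit on the share of cells with a count was 7.71% in C10 and 7.40% in SVEC, under the same condition. Kcnq1, Cdkn1c, Phlda2 and Slc22a18 of the same domain had 0 counts in every library, while Cd81 was counted in all 46 C10 cells (mean 221 CPM) and in 85.4% of SVEC cells (191 CPM). At the Snhg14 locus the 4 genes Snrpn, Snurf, Ndn and Magel2 also had 0 counts in every library.

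Tug1 varied least of the 7 RNAs among C10 single cells, with an SD 1.06 times its mean. It had counts in 36 of 46 C10 cells, from 0 to 328 CPM with a median of 61.9 CPM, and in 28 of 48 SVEC cells, from 0 to 1359 CPM with a median of 12.3 CPM. The 2 summaries went in opposite directions: the median was higher in C10, but the mean was 79.5 ± 84.7 CPM (SD, n = 46) in C10 and 122 ± 237 CPM (SD, n = 48) in SVEC. After thinning to 100000 counts Tug1 remained in 73.3% of C10 cells (exact 95% interval 58.1 to 85.4%) and 59.5% of SVEC cells (43.3 to 74.4%), with intervals over cells of 1 line and no test between the lines. The 1-cell libraries held 0, 0, 0, 357, 1820, 901, 2037 and 0 Tug1 counts, the 3-cell libraries 75, 257, 113, 434, 539 and 1099, and the 10-cell libraries 384, 818, 576, 1148, 710 and 413. Tug1 was therefore in 4 of 8, 6 of 6 and 6 of 6 libraries, and its mean was 58.5 ± 83.4 CPM (SD, n = 8), 37.5 ± 34.3 CPM (SD, n = 6) and 59.6 ± 27.2 CPM (SD, n = 6), with medians of 12.8, 27.7 and 47.1 CPM. The coefficient of variation between libraries, the SD divided by the mean, was 1.43, 0.913 and 0.457 for 1, 3 and 10 cells, while the median over all genes in at least 50% of libraries was 1.39, 1.03 and 0.840. Malat1 did not follow that order, with 1.06, 0.724 and 1.83, and 1.26 in 10 cells without replicate 9. Tug1 shares 483 exon bases with Morc2a on the opposite strand, so part of its counts is uncertain.

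Pvt1, the neighbour of Myc, had counts in 22 of 46 C10 cells and 20 of 48 SVEC cells. Its mean was 21.6 ± 43.6 CPM (SD, n = 46) in C10, with a highest cell of 175 CPM, and 63.3 ± 161 CPM (SD, n = 48) in SVEC, with a highest cell of 1050 CPM. The SVEC mean was 2.92-fold higher. Many C10 detections rested on very few reads: thinning to 100000 counts lowered the number of C10 cells with Pvt1 from 22 to 11 of 45 and of SVEC cells from 19 to 17 of 42. Myc itself went the other way, at a mean of 83.3 CPM in C10 and 46.1 CPM in SVEC. In the input series the 1-cell libraries held 0, 2, 1, 4, 2441, 1596, 0 and 752 Pvt1 counts, the 3-cell libraries 1, 4, 0, 222, 378 and 0, and the 10-cell libraries 162, 441, 225, 248, 954 and 3. Each single library of 1 cell thus held either at most 4 counts or at least 752, whereas 5 of the 6 pools of 10 cells lay between 162 and 954 counts.

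Firre, the X-linked RNA, was at the edge of detection. It had counts in 19 of 46 C10 cells and 3 of 48 SVEC cells, but after thinning to 100000 counts it remained in 2 of 45 C10 cells and 2 of 42 SVEC cells. The higher C10 share before thinning was therefore not seen at equal depth. C10 single-cell replicate 1, the cell with the highest Malat1, held 103 of the 165 Firre counts of its line. Mean levels were 1.13 ± 4.42 CPM (SD, n = 46) in C10 and 1.11 ± 4.66 CPM (SD, n = 48) in SVEC, and the sign of their log2 ratio (0.02) changed with the scaling, from -0.20 without the highest cell of each line to 1.27 with counts pooled over cells. The mRNA of Hnrnpu, the protein that anchors Firre, was counted in 97.8% of C10 and 79.2% of SVEC cells at means of 331 and 249 CPM. In the input series Firre reached 18 counts in the 1-cell, 9 in the 3-cell and 94 in the 10-cell libraries at most.

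**Figure D1:**
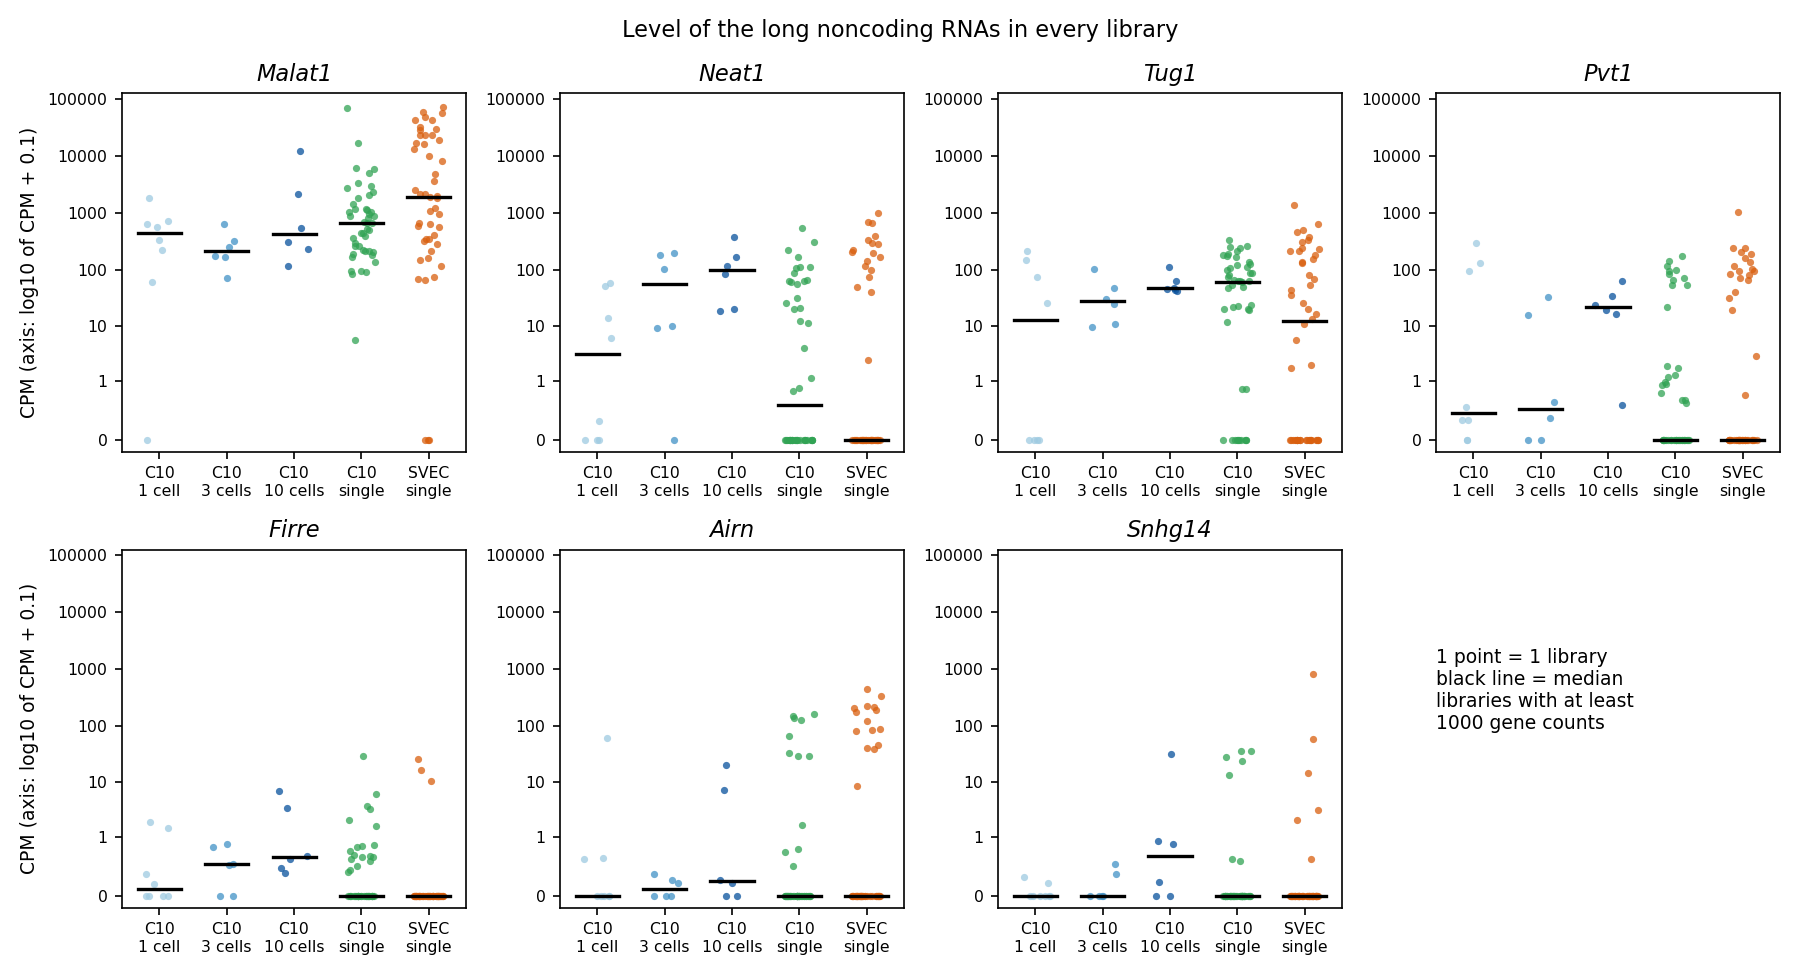
Level of 7 long noncoding RNAs in every library with at least 1000 gene counts, in CPM on a log10 axis offset by 0.1 so that zeros show at the bottom; 1 point is 1 library, the black line is the group median, and the 5 columns of each panel are the C10 libraries of 1, 3 and 10 cells and the C10 and SVEC single cells. The Malat1 median lies above those of the other RNAs in all 5 columns, Airn and Snhg14 are at 0 in most single cells, and 10-cell replicate 9 is the highest blue Malat1 point at 12026 CPM.

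The order of the RNAs was compared on the scale of CPM per kilobase of annotated exon (GENCODE M21), since longer RNAs collect more reads in full-length cDNA. Malat1 led in every group, with mean levels of 77.6, 38.6 and 368 CPM per kilobase in libraries of 1, 3 and 10 cells, 431 in C10 single cells and 1792 in SVEC single cells. The next RNA was Pvt1 at 9.33 in 1 cell, Neat1 at 4.00 in 3 cells and 6.34 in 10 cells, Tug1 at 8.17 in C10 single cells and Airn at 13.3 in SVEC single cells, all in mean CPM per kilobase. Behind Malat1 the order was not resolved: in 10 cells Neat1 (6.34 ± 6.55, SD, n = 6) and Tug1 (6.12 ± 2.80) differed by less than their spread, and in SVEC cells so did Airn (13.3 ± 27.2, SD, n = 48), Tug1 (12.5 ± 24.4) and Pvt1 (9.04 ± 23.0). Firre and Snhg14 were last among the RNAs with counts in the 10-cell libraries and in both sets of single cells. The Airn values are uncertain because the annotated exons leave out the unspliced form of this RNA.

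The 2 lines were then set side by side over all genes with counts in at least 25% of the cells of a line. Of the 8 RNAs 6 passed that filter, and 4 of the 6 (Malat1, Neat1, Pvt1 and Airn) had a mean more than 2-fold lower in C10 than in SVEC, while 0 were more than 2-fold higher. Over all 9303 genes compared, 18.6% were more than 2-fold lower and 19.6% more than 2-fold higher in C10. The median log2 ratio was -1.36 over the 6 RNAs and 0.02 over all genes. These counts describe 1 sample of each line and carry no test. The TMM scaling of edgeR moved the Neat1 ratio from -1.18 to -0.99, just inside 2-fold, and left the other 3 beyond it.

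**Figure D2:**
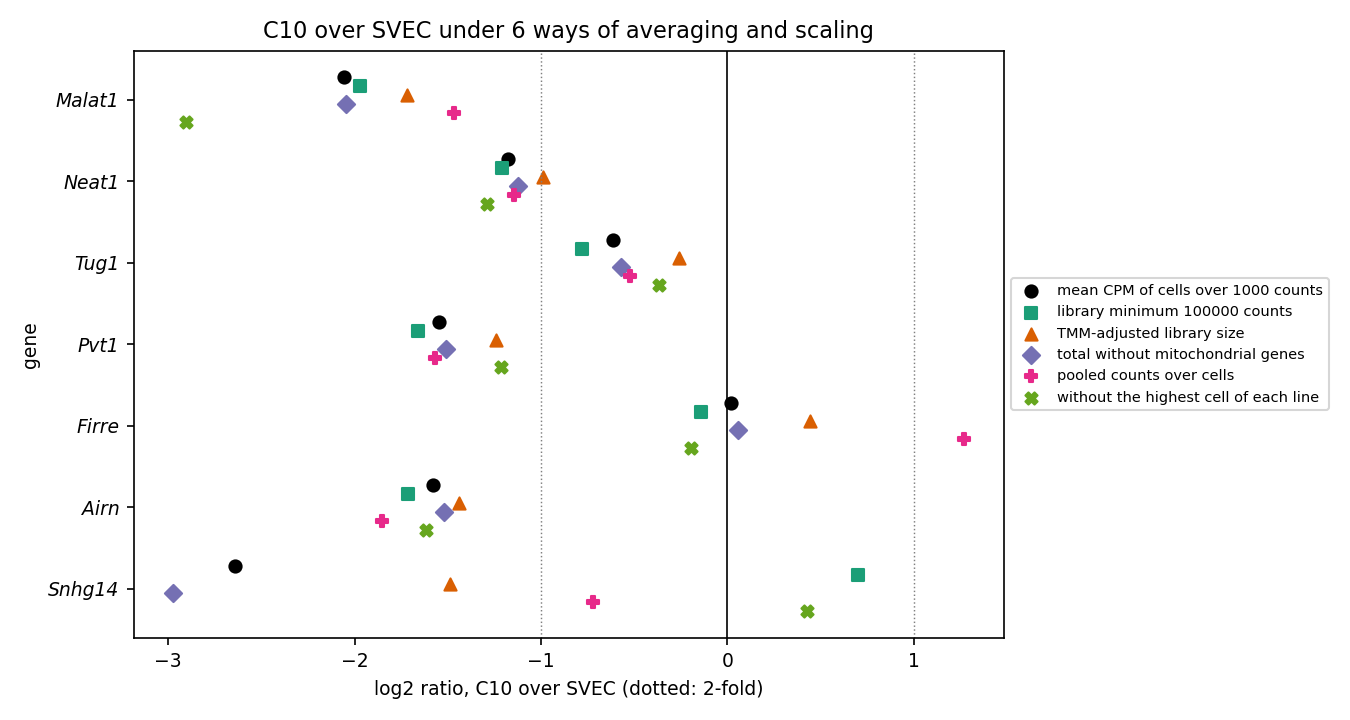
Log2 ratio of the level in C10 over SVEC single cells for the 7 RNAs with counts, under 6 ways of averaging and scaling marked by symbol; dotted lines mark 2-fold and the solid line no difference. Malat1, Neat1, Pvt1, Airn and Tug1 stay on the SVEC side under all 6, while Firre and Snhg14 change side.

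The mRNAs of proteins of the nuclear bodies that Malat1 and Neat1 belong to were compared in the same way. All levels are read counts of RNA, and no protein measurement was used. Of 15 nuclear speckle proteins all passed the filter, 6 were more than 2-fold lower in C10 and 0 higher, with a median log2 ratio of -0.76. The most abundant of them, the splicing factors Srsf7 and Srsf3, averaged 553 and 511 CPM in C10 against 1011 and 670 CPM in SVEC. Of 12 paraspeckle proteins 11 passed, with 1 more than 2-fold lower in C10, 0 higher and a median of -0.45. Their most abundant members, the RNA-binding proteins Hnrnpk and Nono, averaged 1156 and 266 CPM in C10 against 1581 and 400 CPM in SVEC. Among 20 coding genes at or beside the RNAs' loci, with Hnrnpu, 9 passed, 1 was more than 2-fold higher in C10, 0 were lower, and the median was 0.51. That 1 gene was Morc2a, at a log2 ratio of 1.11. Of 15 other nuclear long noncoding RNAs 3 passed (Ftx, Chaserr and Lncpint), and Chaserr, the transcript beside Chd2, was the 1 more than 2-fold lower in C10, at 7.39 against 76.8 CPM. Over all 9303 genes compared, 18.6% were more than 2-fold lower and 19.6% more than 2-fold higher in C10. The lists with 1 gene beyond 2-fold are therefore not read as a result. Morc2a and Chaserr were singled out after their values were seen.

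Co-variation was measured as Spearman's rho of CPM over the cells of 1 line with at least 100000 gene counts, 45 C10 cells and 42 SVEC cells. Cells of a line share culture, preparation and differences in depth and genes detected, so rho is a description and has no p-value. In SVEC, Malat1 and Neat1 varied together, with a rho of 0.79. All 16 SVEC cells with a Neat1 count had Malat1, and the lowest Malat1 levels among them were 587 and 4747 CPM. Among the 26 SVEC cells without Neat1 the highest Malat1 level was 13313 CPM. The SVEC cell with the most Neat1, replicate 4 at 1007 CPM, held 43021 CPM of Malat1, and the next, replicate 16 at 684 CPM of Neat1, held 60466 CPM of Malat1. In C10 the rho of Malat1 with Neat1 was 0.12. The C10 cell with the most Neat1, replicate 28 at 552 CPM, held 871 CPM of Malat1, and among the 22 C10 cells without Neat1 the highest Malat1 level was 17147 CPM. Whether the relation differs between the lines was not tested.

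Airn joined this pattern in SVEC. Its rho was 0.54 with Malat1 and 0.62 with Neat1, and 11 of the 14 SVEC cells with Airn also had Neat1. Snhg14 also ranked with them (0.41 with Malat1, 0.51 with Neat1), but it was in only 5 of the 42 cells, all of which had Neat1, and its partial values given library total and genes detected were 0.25 and 0.35. Tug1 did not follow Malat1 in either line, with rho of 0.20 in SVEC and 0.04 in C10. In C10 the highest pair was Pvt1 with Firre at 0.41, both RNAs present in 14 cells together, followed by Tug1 with Pvt1 and Tug1 with Firre, both at 0.35. Among pairs in which both RNAs were in at least 25% of cells, 1 of 15 in C10 and 4 of 10 in SVEC reached a rho of 0.4. Over the background genes described below, the share reaching 0.4 with the RNAs of these pairs differed by RNA and line. In SVEC it ran from 1.11% with Tug1 to 6.58% with Neat1, and in C10 from 0.228% with Neat1 to 3.18% with Firre. Among RNAs in such pairs in both lines, it was higher in SVEC for Malat1, Neat1, Pvt1 and Airn, and higher in C10 for Tug1. For RNAs outside these pairs it was 0.227% with Firre and 0.766% with Snhg14 in SVEC, and 0.227% with Snhg14 in C10. Whether the pairs exceed this background was not tested. Counts are sparse outside Malat1 and Tug1, so the weaker values are not read as a relation.

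**Figure D3:**
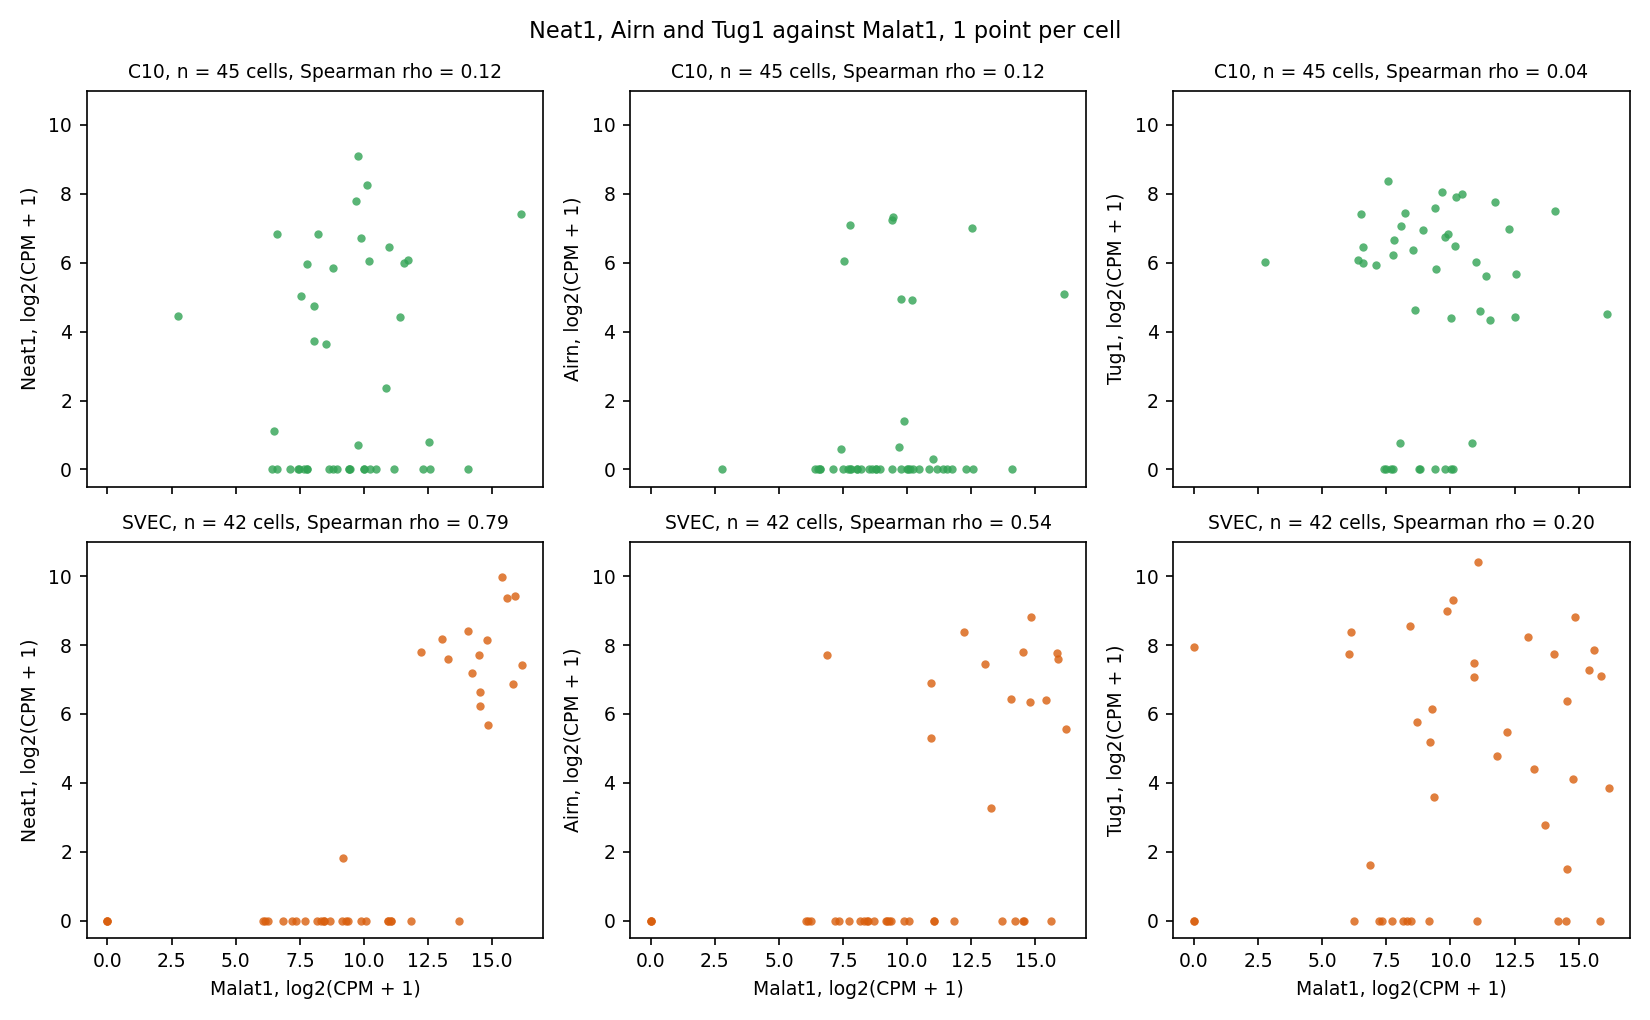
Neat1, Airn and Tug1 against Malat1 in single cells with at least 100000 gene counts, all axes in log2(CPM + 1); 1 point is 1 cell, C10 above (45 cells) and SVEC below (42 cells). In SVEC the cells with Neat1 gather at the right, at a rho of 0.79, while in C10 they spread along the Malat1 axis at a rho of 0.12.

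**Figure D4:**
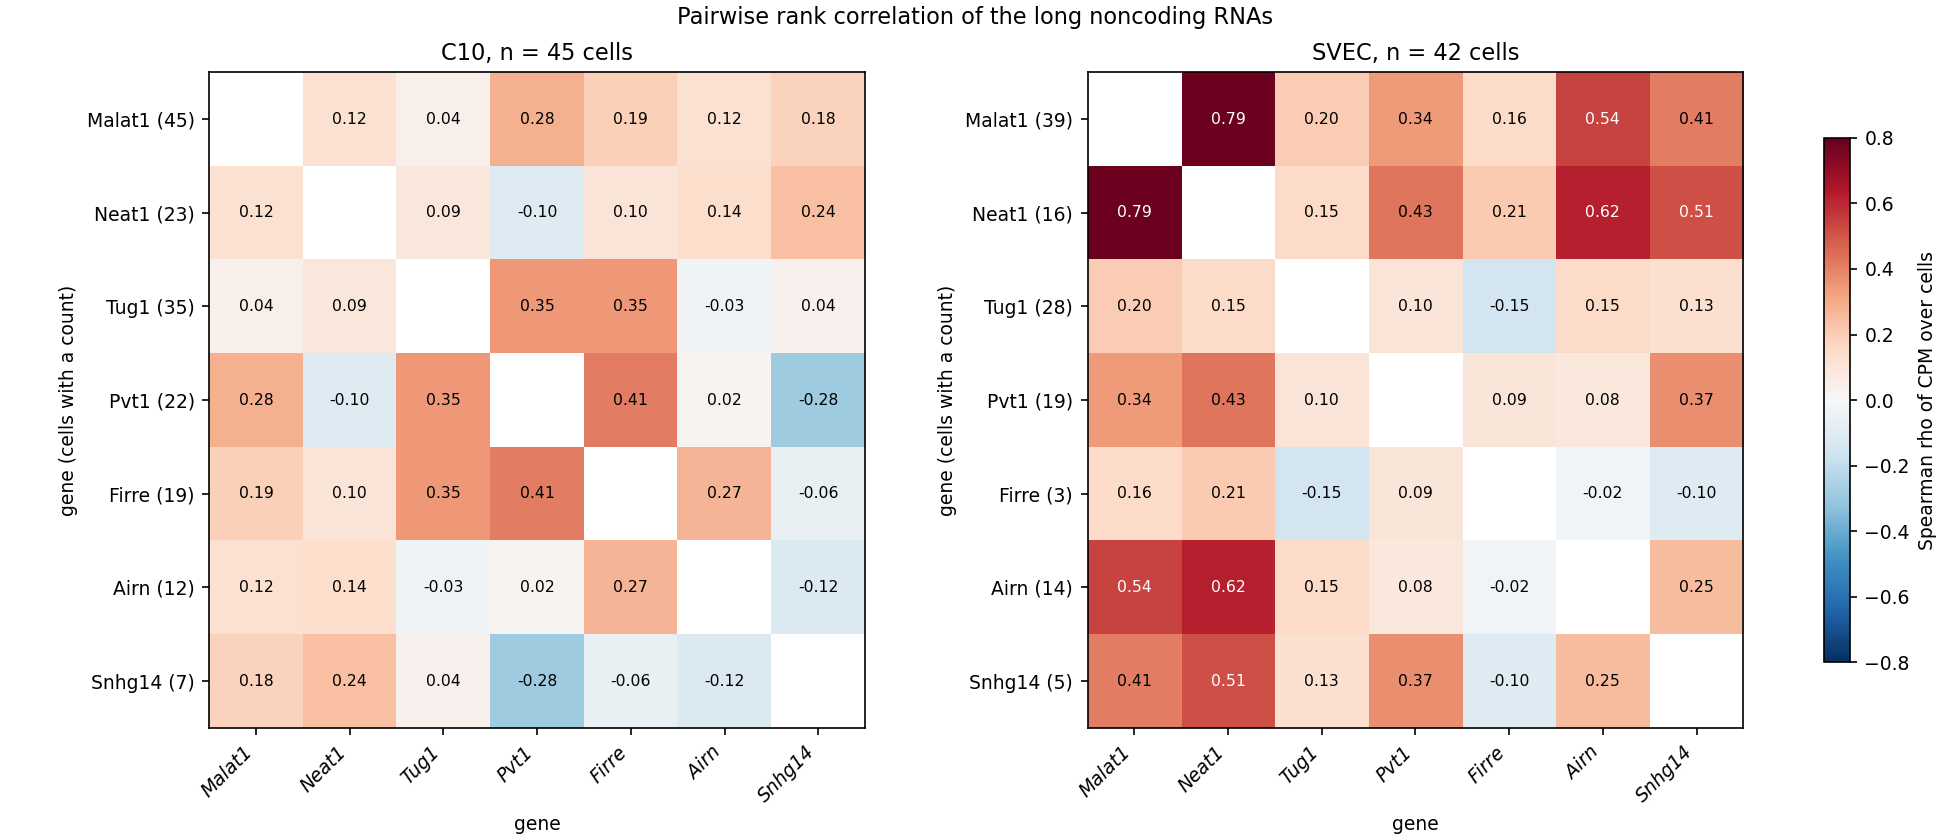
Spearman's rho for each pair of the 7 RNAs with counts, in 45 C10 cells and 42 SVEC cells, with the number of cells that hold each RNA in brackets; red is positive and blue negative. The highest values lie in the SVEC block of Malat1, Neat1 and Airn (0.54 to 0.79), and the highest C10 value is 0.41 for Pvt1 with Firre.

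Several measures of the cells moved with these RNAs. In SVEC the number of genes detected had a rho of 0.55 with Malat1, 0.63 with Neat1, 0.47 with Airn, 0.48 with Pvt1 and 0.46 with Snhg14, while library total had a rho of -0.08 with Malat1, and the mitochondrial share -0.37 with Malat1. With library total and genes detected both held constant by partial correlation, Malat1 with Neat1 went from 0.79 to 0.59, Neat1 with Airn from 0.62 to 0.46, Malat1 with Airn from 0.54 to 0.37 and Neat1 with Pvt1 from 0.43 to 0.17. In C10 genes detected had a rho of 0.04 with Malat1, 0.20 with Neat1 and 0.59 with Firre, and the mitochondrial share -0.44 with Tug1. What part the genes detected per cell have in these relations beyond the partial values was not tested.

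The rho of Malat1 with every gene in at least 50% of cells gave the background for these values. In C10 the median over 5714 genes was 0.01 and 0.578% of them reached 0.4, while 0 of the 6 other RNAs with counts did. In SVEC the median over 3524 genes was 0.02 and 4.54% of them reached 0.4, and 3 of the 6 other RNAs did (Neat1, Airn and Snhg14). These 3 were in fewer than 50% of cells, and with library total and genes detected held constant their rho with Malat1 was 0.59, 0.37 and 0.25. The genes most like Malat1 in SVEC were the snoRNA host Snhg20 (rho 0.73), the cytoskeletal linker Plec (0.70) and the zinc finger cofactor Zfpm2 (0.69). Their partial values, held constant in the same way, were 0.51, 0.57 and 0.50. In C10 the genes most like Malat1 were the respiratory chain subunit Uqcrh (0.52), the RNA-binding protein Hnrnpab (0.49) and the DNA repair nuclease Mre11a (0.49). Their partial values were 0.50, 0.47 and 0.50. The genes most like Neat1 in C10 were Gm31724 (0.54), the spindle checkpoint gene Mad1l1 (0.51) and Lrrfip2 (0.51). Tug1 ranked most closely with the chromatin helicase Ruvbl2 (0.59), Tor1a (0.57) and Preb (0.56) over the 45 C10 cells and with Dpf2 (0.64), Cd2ap (0.58) and the DNA polymerase subunit Pold2 (0.52) over the 42 SVEC cells. These genes are the upper ends of spreads that reached both signs. In C10 the lowest rho was -0.55 with Malat1, -0.54 with Neat1 and -0.50 with Tug1. In SVEC it was -0.53 with Malat1 and -0.52 with Tug1. Whether the named genes exceed what so many comparisons give was not tested. Only Malat1 and Tug1 had such sets of 3 in both lines. Their sets shared no gene between the lines, but sets of 3 from 5714 and 3524 genes would seldom share one, so nothing is read from this.

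The mRNAs of the nuclear body proteins were set against Malat1 and Neat1 in the same way. Of the speckle proteins in at least 50% of cells, 3 of 13 reached 0.4 in SVEC with a median rho of 0.24, led by the speckle scaffold protein Son at 0.61, and 0 of 14 did in C10 with a median of 0.06. For paraspeckle proteins the median rho with Malat1 was 0.22 over 6 genes in SVEC, with 1 at 0.4 or more, and 0.03 over 9 genes in C10, with 0. With Neat1 the paraspeckle median was 0.12 in SVEC and 0.08 in C10. The speckle protein Srrm2 was the highest with Neat1 in SVEC, at 0.65. The difference between the lines was not tested, and these mRNAs may share with Malat1 the relation to genes detected given above.

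**Figure D5:**
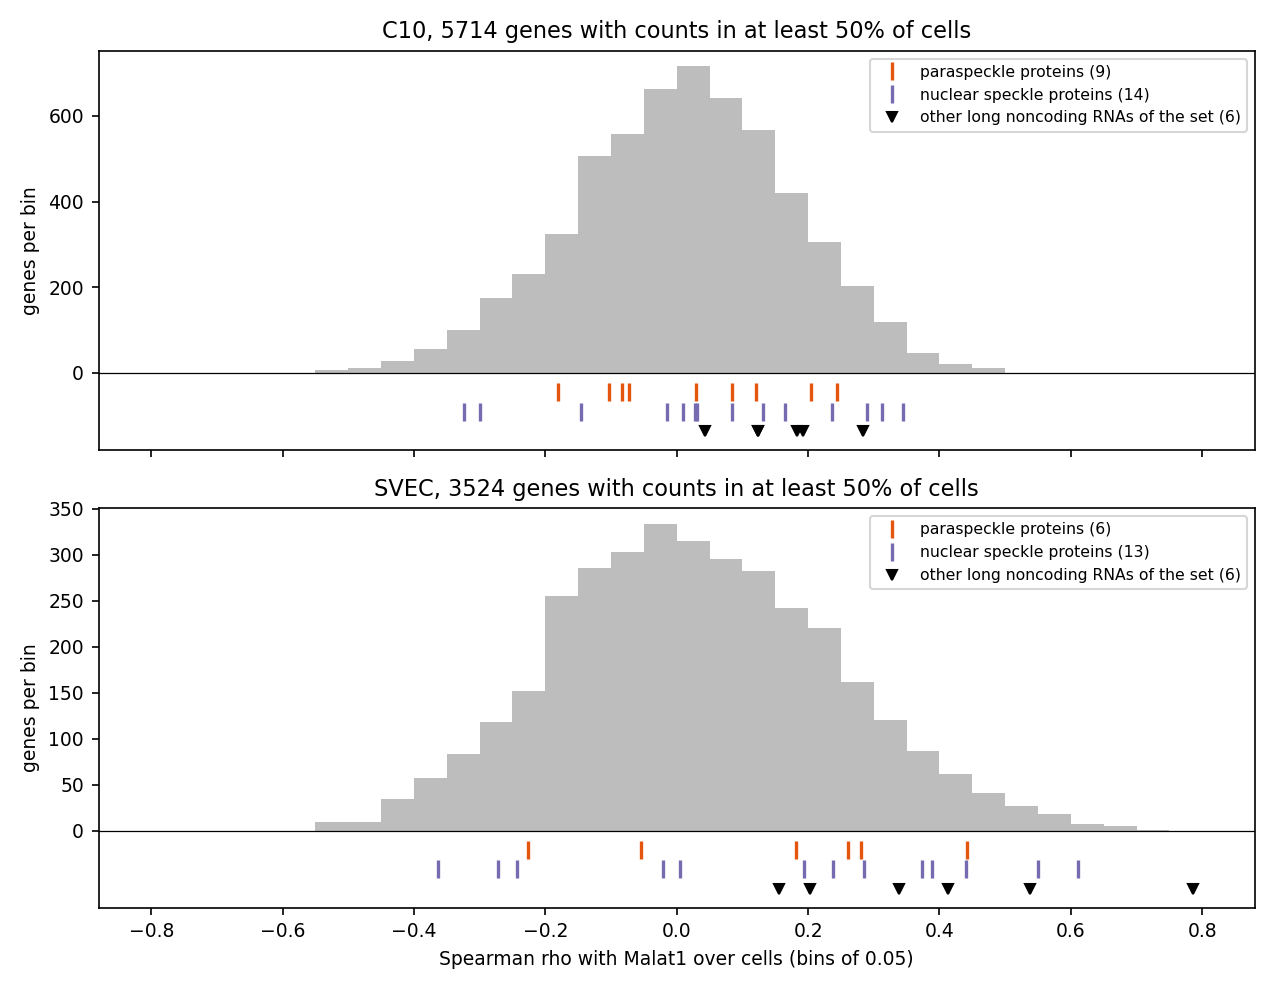
Distribution of Spearman's rho with Malat1 over all genes in at least 50% of cells (grey bars, in bins of 0.05), in C10 above (5714 genes) and SVEC below (3524 genes). Marks under the bars are the mRNAs of paraspeckle and nuclear speckle proteins and the 6 other long noncoding RNAs. Neat1 is the black triangle at 0.79 in SVEC, to the right of every grey bar, and no triangle exceeds 0.4 in C10.

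The promoters of Malat1 and Airn, which varied together in SVEC, are shown from RefSeq (GRCm38.p6) as the 250 bases before and 50 bases after the annotated start, on the gene's own strand. They are chr19:5802623-5802922 on the minus strand for Malat1 and chr17:12741061-12741360 on the plus strand for Airn. Capitals mark TGACG on either strand, the core of the cAMP response element.
Malat1: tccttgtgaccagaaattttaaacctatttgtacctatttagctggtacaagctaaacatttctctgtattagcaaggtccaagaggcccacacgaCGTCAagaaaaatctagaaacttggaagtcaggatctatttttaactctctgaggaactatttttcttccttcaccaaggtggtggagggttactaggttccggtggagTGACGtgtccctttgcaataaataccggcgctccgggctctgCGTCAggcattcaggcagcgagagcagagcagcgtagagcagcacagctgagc
Airn: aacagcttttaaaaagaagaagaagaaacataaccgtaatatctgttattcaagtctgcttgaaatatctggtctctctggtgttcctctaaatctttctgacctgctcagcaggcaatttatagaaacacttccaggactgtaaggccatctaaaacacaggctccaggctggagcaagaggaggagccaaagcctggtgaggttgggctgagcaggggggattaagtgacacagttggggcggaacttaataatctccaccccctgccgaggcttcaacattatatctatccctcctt
The Malat1 promoter held 3 matches to TGACG and the Airn promoter 0, while 20.8% of 32851 RefSeq promoters of this length held at least 1. The share with 3 or more was not counted. Of the 8 RNAs, 6 were matched in this set of promoters, and among them Kcnq1ot1 also held 1 match to TGACG while Tug1, Firre and Snhg14 held 0. GC content was 47.0% for Malat1 and 45.7% for Airn against a median of 52.7% over all promoters, and 71.3% for Tug1, whose promoter held 37 CG pairs against 10 for Malat1 and 3 for Airn. On the printed strand TATAAA occurred in neither promoter. The Airn promoter had 1 match on the opposite strand, printed as TTTATA, and the Malat1 promoter had 0. A match on either strand was found in 13.6% of promoters. The CCAAT box, the GC box (GGGCGG) and the E box (CACGTG) were also searched on either strand. Malat1 had 0 matches to each. Airn had 1 GC box match, found in 35.7% of promoters, and 0 to the others.

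The test that the replicates allowed was that of 10-cell against 3-cell libraries, with 6 libraries each. By edgeR's quasi-likelihood test 0 of 7 RNAs passed an adjusted p of 0.05, nor did any of the 13602 genes tested (0%), although 1592 genes had an unadjusted p under 0.05 and DESeq2 called 564. The fitted level was higher in 10 cells for 7 of 7 RNAs and for 53.3% of all genes tested, with medians of 2.48 and 0.08 on the log2 scale. Snhg14 passed the filter only through the 10-cell libraries, where it is higher. Without 10-cell replicate 9 the RNAs' median was 1.12 with 6 of 7 higher, and limma on log2(CPM + 1) gave 1.22 over the RNAs and 0.41 over all genes. Malat1 was higher by a log2 fold change of 3.07 (SE 1.02, edgeR adjusted p = 0.210), and without 10-cell replicate 9 by 1.12. Airn was higher by 6.15 (SE 2.08, edgeR adjusted p = 0.215) on 400 against 3 counts, a pooled ratio of 126 with a counting interval of 42.8 to 614. That interval takes reads as independent, although 305 of the 400 were in 10-cell replicate 9. DESeq2 gave Airn a log2 fold change of 6.40 with an adjusted p of 0.0293. Snhg14 stood at 5.93 (SE 2.21, edgeR adjusted p = 0.244) on 325 against 4 counts. Neat1 (0.49, SE 1.18), Tug1 (0.50, SE 0.70), Pvt1 (1.56, SE 1.71) and Firre (2.48, SE 1.32) had edgeR adjusted p-values of 0.997, 0.997, 0.971 and 0.543, and Neat1 turned to -0.18 without 10-cell replicate 9. None of the mRNAs of speckle proteins (15 tested) or paraspeckle proteins (11), the locus genes (11) or the other nuclear long noncoding RNAs (6) passed. In that order 8, 3, 7 and 3 of them had higher fitted levels in 10 cells, with medians of 0.00, -0.18, 0.03 and 0.01.

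Libraries of 10 cells were also set beside those of 1 cell, with no test. Of the 7 RNAs past the filter (counts in 50% or more of either group's libraries), 4 had a mean more than 2-fold higher in 10 cells (Malat1, Neat1, Firre and Snhg14) and 1 more than 2-fold lower (Pvt1). Snhg14 and Airn passed the filter only through the 10-cell libraries. Snhg14 was higher there, so its place among the 4 is not read as a result, while the Airn mean was lower there. Over all 13372 genes compared, 41.2% were more than 2-fold higher and 12.2% more than 2-fold lower in 10 cells. Without 10-cell replicate 9 Malat1 left the first set, at a log2 ratio of 0.31, and Airn moved from -0.69 to -2.34. Leaving out 1-cell replicate 1, the library with few genes, moved Malat1 from 2.24 to 2.05, Neat1 from 3.00 to 2.80 and Pvt1 from -1.29 to -1.48. The C10 libraries of the single-cell set, which also hold 1 cell each, averaged 3008 CPM of Malat1 against 542 CPM in the 1-cell libraries of the input series, and 1494 CPM without their highest cell.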

How the data were processed

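The deposited files hold whole-number read counts per gene symbol in 1 file per library, with 5 closing counters for unassigned reads that were left out of library totals. FastQC, STAR and HTSeq are named per the submitters' processing notes; their versions, the genome build, the annotation and the strand setting are not given in the sources used here. The counts carry no molecular identifiers, so copies of 1 molecule count as separate reads. Intervals on pooled counts take reads as independent, so they cover neither amplification nor the spread between libraries and are too narrow.

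The members and gene lists were chosen with earlier results of these data known. Groups came from the labels. All 8 long noncoding RNAs are named. For each one in at least 50% of a line's cells the 3 genes with the highest rho are named, and for each list the 2 most abundant. Counts were scaled to 1000000 gene counts (CPM). Libraries under 1000 gene counts were left out, and those under 100000 were left out of correlations and of detection at a fixed depth of 100000 counts. Shares have exact (Clopper-Pearson) and pooled counts exact Poisson 95% intervals. A difference between lines or between 1 cell and pools means over 2-fold in mean CPM, with no test.

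Libraries of 10 and 3 cells were compared with edgeR 4.0.16 (R 4.3.3), by its two-sided quasi-likelihood test with TMM factors, on genes with counts in 50% or more of either group's libraries, with Benjamini-Hochberg adjustment over all of them, at 0.05. The test was checked on simulated data. DESeq2 1.42.0 and limma 3.58.1 on log2(CPM + 1) were alternatives. No 2 libraries agreed within sampling noise (lowest chi-square per degree of freedom 3.23). No sequencing batch is given in the labels. Sequences and exon lengths came from GENCODE M21 and RefSeq, both on GRCm38, which may not be the authors' build.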

Additional observations from a re-analysis of the deposited data

Results flagged for a closer look

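In each input group with counts in at least 1 library, the highest and lowest value of each RNA was compared with its neighbour, and 7 of 21 sets of values held a library far from the others. Chance gives about 1 in 20 for normally distributed values, but over all genes with a count the same rule picked 45.6% of sets (60.8% for 1 cell, 42.2% for 3 cells and 35.6% for 10 cells). Malat1 was at 1804 CPM in 1-cell replicate 14 (next library 712 CPM) and at 12026 CPM in 10-cell replicate 9 (next 2167 CPM). Airn was at 60.0 CPM in 1-cell replicate 2 (next 0.383 CPM) and at 20.6 CPM in 10-cell replicate 9 (next 7.35 CPM). Pvt1 was at 292 CPM in 1-cell replicate 9 (next 133 CPM), and Tug1 at 113 CPM in 10-cell replicate 6 (next 64.6 CPM). Snhg14 was at 32.2 CPM in 10-cell replicate 10 (next 0.842 CPM). All 7 stood out on the high side, none of them in 1-cell replicate 1, and 10-cell replicate 9 was the highest of its group for Malat1, Neat1, Pvt1 and Airn.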

How the results depend on the processing

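In the comparison of 10 with 3 cells DESeq2 called 564 genes (508 higher, 56 lower) where edgeR called 0. DESeq2 size factors, no filter, limma, leaving out 10-cell replicate 9 and leaving out replicate 1 also gave 0. With a replicate block edgeR called 0 genes (1284 at an unadjusted p under 0.05). Libraries with the same number did not vary together (r from -0.02 to 0.05, 2 of 6 matching best with their own number), so the numbers were not taken to pair the samples. Of 48 fold changes of single RNAs with an adjusted p under these alternatives, 46 kept their direction and stayed short of the threshold, Airn passed it by DESeq2 (6.40, adjusted p = 0.0293), and Neat1 reversed to -0.18 without 10-cell replicate 9, with 0.34 without replicate 1. Member pairs with a rho of at least 0.4 went from 1 to 0 in C10 with Pearson's r and to 0 with partial correlation, and from 4 to 2 in SVEC with partial correlation. Of 35 log2 ratios of C10 over SVEC under an alternative 31 moved by less than the SD of log2(CPM + 1) between cells. That limit is wide, and the Malat1 shift from -2.06 to -2.91 lay within it. Snhg14 reversed to 0.70 with a minimum of 100000 counts and to 0.43 without the highest cell of each line. The causes were not tested. Leaving out libraries in the comparison of 10 cells with 1 cell was chosen after seeing the data. Depth limits the detection of Firre and Pvt1, whose share of C10 cells went from 42.2% to 4.44% and from 48.9% to 24.4% at 100000 counts.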

Other observations

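Other nuclear long noncoding RNAs gave further values. Lncpint, the transcript of the Mkln1 locus, was in all 46 C10 cells (mean 77.2 CPM) and in 85.4% of SVEC cells (60.9 CPM), more cells than any of the 8 RNAs in SVEC except Malat1. Its rho with Malat1 was 0.04 in C10 and 0.01 in SVEC. Chaserr, in 17 of 42 SVEC cells, had a rho of 0.63 with Malat1 there, and 0.30 in C10, where it was in 12 of 45 cells. Ftx, a neighbour of Xist, was in 60.9% of C10 and 22.9% of SVEC cells. Xist, Meg3, H19 and Miat had 0 counts in every library. Fendrr was in 20.8% of SVEC and 4.35% of C10 cells, at means of 15.1 and 1.17 CPM. These genes were singled out after their values were seen.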
